A study of Mus musculus with 45 samples.

Results

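The SOCS family of suppressors of cytokine signaling was followed in mouse bone marrow-derived macrophages. Its members, Socs1 to Socs7 and Cish, were chosen by name from the gene symbols deposited with the data, and 8 of 8 were found among the 29307 genes counted. The libraries were made from cells of mice with p254I, p254V or p284R in Famin (the gene Lacc1), which stand for a non-risk, a risk and a monogenic disease variant of human FAMIN and which share a C57BL/6N background. Marrow from mice aged 6 to 10 weeks was cultured for 6 days and then left unstimulated (M0), treated for 24 h with IFN-γ at 50 ng/mL and LPS at 20 ng/mL (M1) or treated for 24 h with IL-4 at 20 ng/mL (M2). Each of the 9 groups held 5 libraries, 45 in all. The series text gives 5 mice per genotype, so cultures that share a genotype and a replicate number were read as coming from the same mouse, a reading that the titles allow but do not state. Counts out of 15 mice below rest on it. The groups compared were thus p254I, p254V and p284R macrophages in each of M0, M1 and M2, and none of these cultures was free of an engineered Famin allele.

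SOCS proteins are intracellular feedback inhibitors of cytokine receptors that signal through JAK kinases and STAT transcription factors. Each has an SH2 domain, which binds phosphorylated tyrosine, and a C-terminal SOCS box, which binds Elongin B and Elongin C and thereby recruits a Cullin 5 ubiquitin ligase. Socs1 and Socs3 also carry a kinase inhibitory region that acts on JAKs, whereas Cish and Socs2 are best known as targets of STAT5 and restrainers of its activators, such as the growth hormone receptor. Socs4 to Socs7 have long N-terminal regions and are studied mostly in growth factor and insulin signaling. In macrophages both IFN-γ and IL-4 act through such receptors, IL-4 by way of STAT6.

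Promoter sequences of Socs1, Socs3, Cish and Socs4 were taken from RefSeq (GRCm38.p6), as 300 bases from 250 before to 50 from the annotated start. Positions below count from this RefSeq start. In the GENCODE annotation used for gene lengths, Cish and Socs3 begin further upstream (chr9:107296026 and chr11:117970047), so the positions hold for the start used only. They were searched on both strands for TTCNNNGAA and TTCNNNNGAA, the spacings at which STAT dimers bind, and for GAAANNGAAA, a core of interferon response elements; matches of different motifs were allowed to overlap. Of 32841 such windows of all genes, 8.30% held TTCNNNGAA, 6.95% held TTCNNNNGAA and 3.44% held GAAANNGAAA. The stretch from 170 bases before the start to 20 bases from it is shown for the 3 cytokine-inducible members with a match, which are among those whose levels differed most between polarizations, with the matches in capitals. Socs1 (chr16:10785517-10785706, minus strand) held GAAANNGAAA at 2 overlapping positions, from 83 to 74 and from 77 to 68 bases before the start. Socs3 (chr11:117969347-117969536, minus strand) held TTCNNNGAA from 154 to 146 bases before it. Cish (chr9:107296489-107296678, plus strand) held TTCNNNGAA at bases 1 to 9 and 12 to 20 from the start. The Socs4 window (chr14:47276670-47276969, plus strand) held none of the motifs, which says only that these letters were not in it.
Socs1: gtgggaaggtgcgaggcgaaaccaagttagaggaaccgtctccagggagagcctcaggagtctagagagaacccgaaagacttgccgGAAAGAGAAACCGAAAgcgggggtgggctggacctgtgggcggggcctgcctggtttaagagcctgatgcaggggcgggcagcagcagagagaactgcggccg
Socs3: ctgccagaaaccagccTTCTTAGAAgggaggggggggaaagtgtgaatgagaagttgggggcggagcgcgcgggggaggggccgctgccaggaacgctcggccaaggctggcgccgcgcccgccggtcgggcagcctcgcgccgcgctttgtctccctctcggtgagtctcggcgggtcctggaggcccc
Cish: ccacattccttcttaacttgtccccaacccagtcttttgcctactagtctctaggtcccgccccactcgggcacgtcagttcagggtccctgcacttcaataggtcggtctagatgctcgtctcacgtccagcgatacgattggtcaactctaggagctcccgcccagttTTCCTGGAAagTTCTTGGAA

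Total counts ranged from 17239009 to 43740283 per library, with a median of 27553642. The labels were checked on markers. The 5 tested M1 markers, Nos2, Cxcl9, Cxcl10, Irf1 and Cd40, were all higher in M1 than in M0, and the 7 M2 markers, among them Arg1, Retnla and Chil3, were all higher in M2 than in M0. Summed macrophage markers such as Adgre1 and Csf1r held 5432 to 11008 CPM (read counts scaled to library size, here with TMM factors), and the 6 B and T cell markers together at most 0.562 CPM. Ccr3 made up most of the basophil, mast cell and eosinophil list, which spanned 37.9–121 CPM in M0, 1.21–7.80 CPM in M1 and 54.9–132 CPM in M2. Dendritic cell markers summed to 0.743–1.82, 6.502–24.8 and 3.93–13.0 CPM, neutrophil and precursor markers to 19.4–204, 29.3–97.0 and 13.0–58.8 CPM, and stromal markers to 10.3–49.3, 4.19–10.8 and 4.86–17.4 CPM in M0, M1 and M2. The dendritic cell markers did not move together. In M1 the sum was mostly Xcr1 and Dpp4 (medians 8.17 and 7.52 CPM). In M2 it was mostly Zbtb46 (median 7.34 CPM, beside 0.578 in M0 and 0.316 in M1). Flt3 and Cd209a stayed at or below 0.317 CPM. No marker was at 0 in every library of a polarization, and the part of these cells in the results below was not tested. In bulk RNA, fewer cells of a type and less RNA per cell cannot be told apart.

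A pair of libraries stood apart from those with the same label. The p254I M1 library of mouse 5 had 40.8 CPM of Arg1 and 49.1 CPM of Retnla, against at most 0.912 and 0.249 CPM in the other 14 M1 libraries, and it had the highest Cish and Socs2 of the 15. The p254I M2 library of mouse 4 had 93.4 CPM of Irf4, against 185–292 CPM in the other M2 libraries, and the lowest Socs2, Socs3, Socs6, Socs7 and Cish among them. It was also the lowest in Retnla, Chil3 and Ccl24, but the highest in Mrc1 (2197 CPM) and Clec10a (56.5 CPM), and 1032 CPM of Arg1 put it in place 9 from the lowest. It had the highest Socs4 (51.1 CPM) and Socs5 (47.2 CPM) of the M2 libraries. For the members in which either library was the highest or lowest, values without it follow. For Socs4 and Socs5 these are ranges over all alternatives.

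Polarization changed almost the whole family. In M1 macrophages Socs1, Socs3, Cish, Socs4 and Socs7 were higher and Socs2, Socs5 and Socs6 lower than in M0, and in M2 macrophages Cish, Socs2, Socs1, Socs6 and Socs5 were higher and Socs3 lower. With the quasi-likelihood test of edgeR and p-values adjusted by Benjamini-Hochberg over 12905 genes, 8 of 8 members passed an adjusted p of 0.05 between M1 and M0, 6 of 8 between M2 and M0, and 8 of 8 between M1 and M2. The shares of all genes called were 77.3%, 76.4% and 79.1%, so a call as such did not set a member apart from other genes. For M1 against M0 the members called higher were 5 (37% of all genes) and those called lower 3 (40.3%). For M2 against M0 they were 5 (36.8%) and 1 (39.6%), and for M1 against M2 they were 4 (39%) and 4 (40.1%). The median log2 fold change over the members was 0.22, 0.72 and -0.24 for M1 against M0, M2 against M0 and M1 against M2, beside -0.03, -0.03 and -0.01 over all genes tested.

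**Figure D1:**
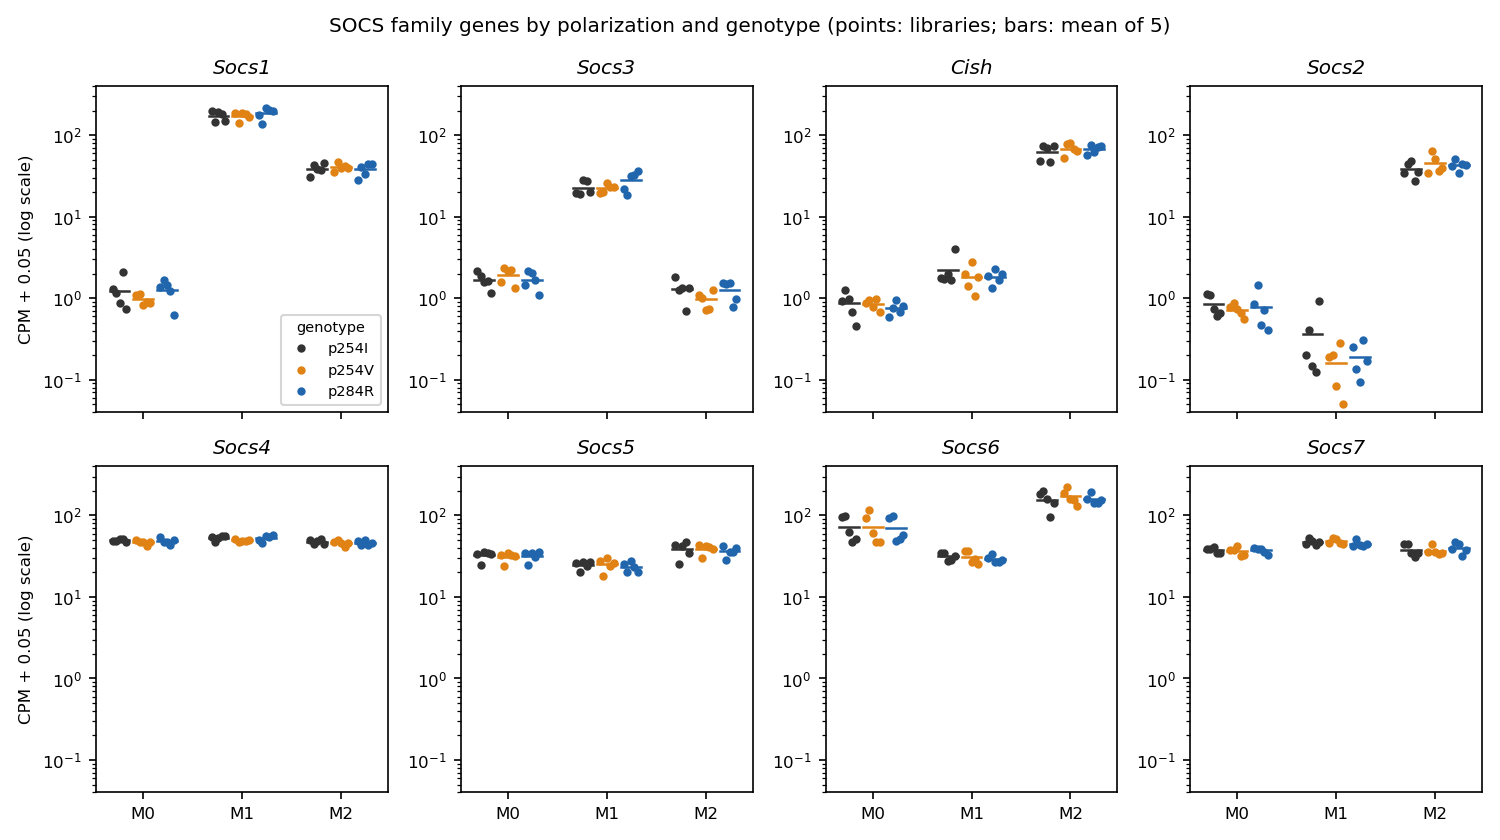
TMM-scaled CPM plus 0.05, on a log axis, of each SOCS family gene in M0, M1 and M2 macrophages. Each point is a library, colors mark the genotype and short bars are means of 5. Socs1 lies near 1 CPM in M0 and above 138 CPM in each M1 library, Cish and Socs2 above 27 CPM in M2 only, and the 3 genotypes lie on top of each other.

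Socs1, whose protein binds JAKs and blocks their kinase activity, rose strongly with both stimuli. It spanned 0.571, 1.07 and 2.03 CPM in M0 (lowest, median and highest of 15), 138, 182 and 217 CPM in M1, and 28.0, 39.8 and 46.6 CPM in M2. The polarizations did not overlap, and their order was the same in 15 of 15 mice. The log2 fold change was 7.33 ± 0.12 (SE) in M1 (adjusted p = 3.0e-37, edgeR) and 5.15 ± 0.11 in M2 (adjusted p = 2.3e-32), 161-fold and 35.4-fold. Between the stimulated states it was 2.19 ± 0.09 (log2) higher in M1, and within a mouse M1 exceeded M2 between 2.99-fold and 6.58-fold, with 4.63-fold at the median.

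Socs3, the feedback inhibitor of gp130 receptors such as that for IL-6, was raised in M1 and lowered in M2. It spanned 1.05, 1.63 and 2.32 CPM in M0, 18.2, 23.1 and 36.3 CPM in M1, and 0.649, 1.197 and 1.77 CPM in M2 (lowest, median and highest). M1 lay clear of both other states, whereas M0 and M2 overlapped. Its log2 fold change was 3.82 ± 0.13 in M1 (adjusted p = 3.6e-27) and -0.63 ± 0.14 in M2 (adjusted p = 1.7e-04, edgeR), and Socs3 was lower in M2 than in M0 in 13 of 15 mice. Without the p254I M2 library of mouse 4 the M2 value was -0.56 (adjusted p = 4.9e-04, edgeR). The values in M0 and M2 rest on 18 to 72 reads per library.

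Cish, which encodes the STAT5-induced inhibitor CIS, was the member most raised by IL-4. It spanned 0.407, 0.747 and 1.22 CPM in M0, 1.00, 1.77 and 3.95 CPM in M1, and 46.8, 70.1 and 80.7 CPM in M2. The M2 libraries lay far above all others, and M0 and M1 overlapped. Against M0 its log2 fold change was 6.41 ± 0.14 in M2 (adjusted p = 5.5e-33, edgeR), 85.3-fold, with a median ratio within the mouse of 86.9, and 6.45 without the p254I M2 library of mouse 4. It was 1.29 ± 0.15 in M1 (adjusted p = 9.4e-10, edgeR), and 1.19 without the p254I M1 library of mouse 5, in which Cish was 3.95 CPM beside 1.00–2.70 CPM elsewhere in M1. Cish was higher in M1 than in M0 in 15 of 15 mice, the smallest ratio being 1.10. Gm17040 and Gm17041 overlap Cish on the other strand and had 24 and 6 reads in all libraries together.

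Socs2, best known for restraining growth hormone signaling, followed Cish in M2 but not in M1. It spanned 0.351, 0.677 and 1.41 CPM in M0, 0, 0.137 and 0.873 CPM in M1, and 27.4, 41.9 and 63.5 CPM in M2. M2 was clear of both other states, and Socs2 was 59.1-fold higher in M2 than in M0 at the median of the mice. In log2 terms the difference from M0 was 5.83 ± 0.17 in M2 and -2.12 ± 0.29 in M1 (adjusted p = 2.1e-08, edgeR). M1 levels rest on 0 to 17 reads per library; the library without a read, p254V M1 of mouse 5, allows up to 0.103 CPM, a limit that covers counting error only. Socs2 was lower in M1 than in M0 in 14 of 15 mice, the exception being the p254I mouse 5, and without that M1 library the log2 fold change in M1 was -2.35. Without the p254I M2 library of mouse 4, that in M2 was 5.87. Between M1 and M2 it differed by -7.96 ± 0.21, more than any other member.

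Across the 45 libraries the log2 CPM of Cish and Socs2 correlated with r = 0.97, while Socs1 and Socs3 reached 0.69 and Socs3 and Socs6 -0.84. These libraries share mice and polarizations, so the values only describe how alike the patterns over the 3 states were.

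Socs6, which binds receptor tyrosine kinases and insulin receptor substrates, moved in opposite directions. It spanned 46.7, 60.9 and 116 CPM in M0, 25.5, 29.5 and 36.3 CPM in M1, and 95.05, 157 and 221 CPM in M2. Every M1 library lay below every M0 library, while M0 and M2 overlapped. Against M0, its log2 fold change was -1.23 ± 0.13 in M1 (adjusted p = 9.0e-11, edgeR) and 1.18 ± 0.13 in M2 (adjusted p = 2.1e-10), and both directions held in 15 of 15 mice. Without the p254I M2 library of mouse 4 the M2 value was 1.23.

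Socs5, studied in EGF receptor and IL-4 receptor signaling, had the same pattern at a smaller size. It spanned 23.7, 33.5 and 35.3 CPM in M0, 17.9, 25.5 and 30.4 CPM in M1, and 25.1, 40.3 and 47.2 CPM in M2. All states overlapped, yet within the mouse M1 was lower in 15 of 15 and M2 higher in 15 of 15. The log2 fold changes were -0.38 ± 0.08 (adjusted p = 9.0e-05) and 0.26 ± 0.08 (adjusted p = 0.0053, edgeR). Over all alternatives, among them the omission of the p254I M2 library of mouse 4, the M2 value ran from 0.24 to 0.28.

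Socs4 and Socs7 moved least. Socs7, also linked to insulin receptor substrates, spanned 32.2, 38.1 and 42.0 CPM in M0, 42.5, 45.6 and 53.0 CPM in M1, and 30.5, 36.0 and 46.7 CPM in M2. It was higher in M1 than in M0 in 15 of 15 mice, without overlap (log2 fold change 0.34 ± 0.06, adjusted p = 1.1e-06, edgeR). In M2 its log2 fold change was 0.05 (95% interval -0.07 to 0.16, adjusted p = 0.455, edgeR), and 0.08 without the p254I M2 library of mouse 4.

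Socs4, whose protein is closest to Socs5, spanned 42.3, 47.5 and 54.4 CPM in M0, 45.8, 51.7 and 56.8 CPM in M1, and 41.3, 46.3 and 51.1 CPM in M2. These ranges overlapped throughout. The log2 fold change of 0.10 ± 0.04 in M1 passed the test (adjusted p = 0.0112, edgeR), with 12 of 15 mice higher. In M2 it was -0.05 (95% interval -0.12 to 0.02, adjusted p = 0.211, edgeR). Over all alternatives, among them the omission of the p254I M2 library of mouse 4, the M2 value ran from -0.06 to -0.03.

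**Figure D2:**
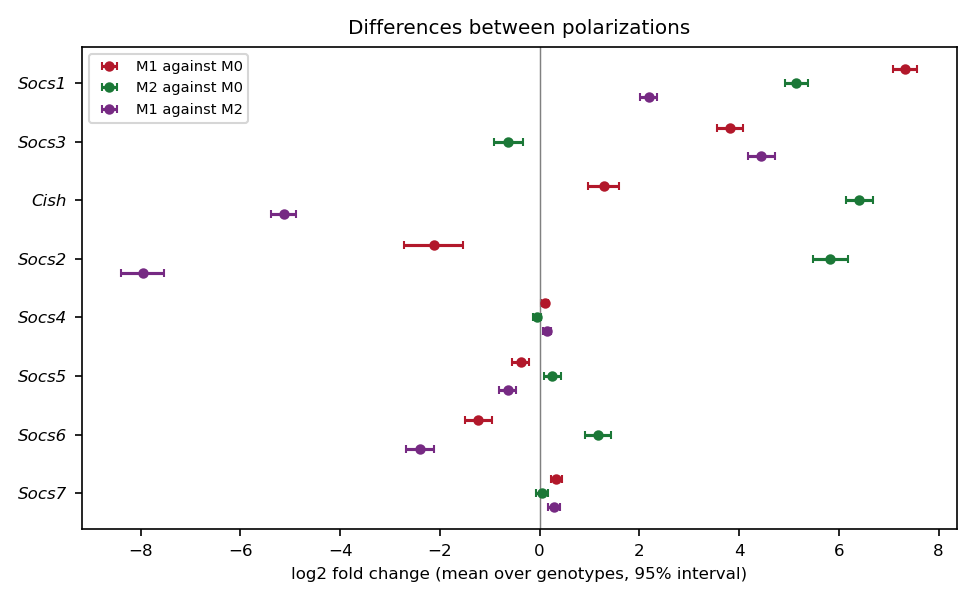
Log2 fold change with 95% interval of each SOCS family gene between polarizations, averaged over genotypes (edgeR). Socs1 lies at 7.33 and 5.15 for M1 and M2 against M0, Socs3 at 3.82 and -0.63, Cish at 1.29 and 6.41, Socs2 at -2.12 and 5.83, and Socs4 and Socs7 lie within 0.34 of 0 in all 3 comparisons.

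Levels of different genes were compared per length, as RPKM, the TMM-scaled CPM divided by the kilobases of the longest coding (CCDS) transcript of each gene. The summed level of the family was 32.6 ± 4.25 RPKM in M0 (SD, n = 15), 95.9 ± 10.4 RPKM in M1 and 103 ± 11.4 RPKM in M2. In M0, Socs6 held 35.4% of this sum, Socs4 21.7%, Socs5 21.5% and Socs7 16.3%, and the cytokine-inducible members the rest. Socs4 and Socs5 did not differ beyond their spread, Socs4 being above Socs5 in 6 of 15 libraries, nor did Socs1 and Socs2 at the lower end.

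In M1 a single member dominated. Socs1, at 61.1 ± 8.63 RPKM, held 63.5% of the sum, and its range did not meet that of Socs3, which followed at 9.54 ± 2.22 RPKM. Socs4 (7.51), Socs7 (6.67), Socs5 (5.26) and Socs6 (5.06 RPKM) came next with overlapping ranges, and Cish and Socs2 were lowest. In M2 the sum was spread over Socs6 (26.8 ± 5.16 RPKM, 25.8%), Cish (23.2 ± 3.74 RPKM, 22.4%), Socs2 (18.8 ± 4.08 RPKM, 18.1%) and Socs1 (13.4 ± 1.87 RPKM, 13.1%). Socs6 exceeded Cish in 9 of 15 libraries, within their spread, and Socs3 was last at 0.440 RPKM.

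The order depended in part on the length. Dividing by all annotated exons, which for Socs2 include long alternative transcripts (9531 against 2222 bases), lowered Socs2 to 4.39 RPKM in M2 and moved it from place 3 to place 7, placed Socs1 second there, and put Socs4 ahead of Socs6 in M0. Socs1 was first in M1 and Socs3 last in M2 with either length. The sums and percentages above hold for the CCDS length only. Over all exons Socs6 and Cish in M2 were at 14.2 and 10.3 RPKM in place of 26.8 and 23.2. Socs1 in M1 stayed at 61.1 RPKM, so how the sums of M1 and M2 compare depends on the length used.

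**Figure D3:**
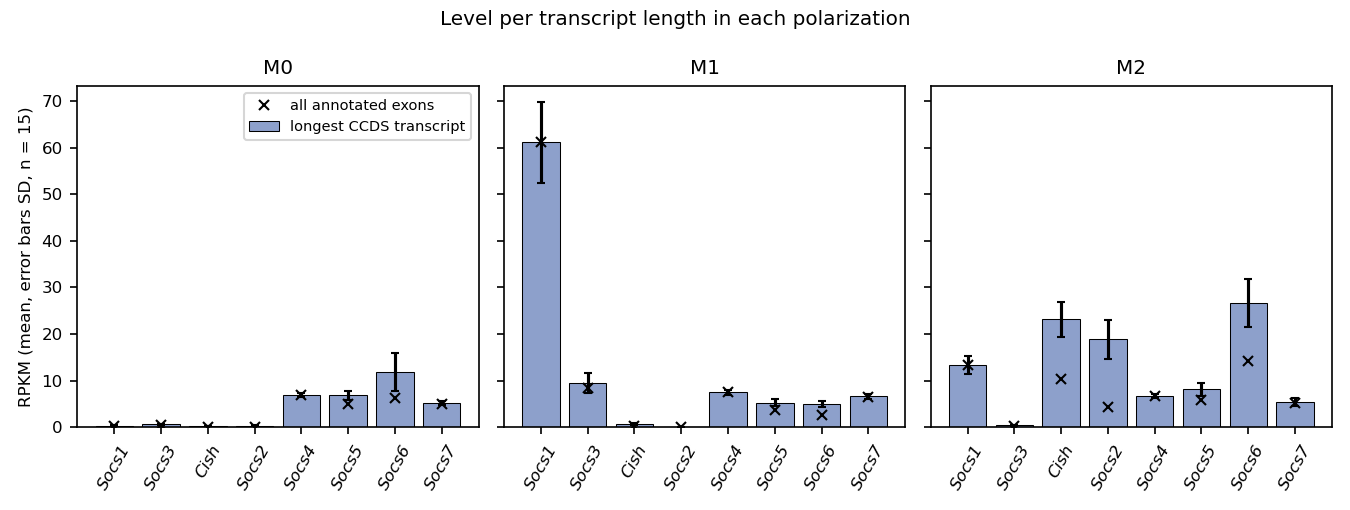
Mean RPKM of each SOCS family gene in M0, M1 and M2 over the longest CCDS transcript (bars, error bars SD, n = 15), and over all annotated exons (crosses). Socs1 stands at 61.1 RPKM in M1, and Socs6, Cish, Socs2 and Socs1 share the M2 panel at 26.8, 23.2, 18.8 and 13.4 RPKM.

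Whether the Famin variants altered this feedback system was asked within each polarization, with p254I as reference. No member passed the test for either variant. Over the 48 differences within a polarization the log2 fold changes ran from -1.40 to 0.31, the lowest adjusted p was 0.864 (edgeR), and 1 unadjusted p was under 0.05. DESeq2 and limma-voom also called 0 members. In the same tests the share of all genes called was 0.263% for p284R in M1 (0.209% higher and 0.0542% lower), 0.00775% for p284R in M2 and 0% in the other 4 comparisons. In 0 of 48 pairs of groups did a variant's 5 libraries lie clear of the 5 of p254I. With 5 libraries against 5 such separation is rare without a difference, and its share over all genes was not computed. The 0 therefore only describes the overlap.

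The depth and spread allowed close limits for some members only. For Socs4 and Socs7 all 12 intervals (95%) lay between -0.28 and 0.26 on the log2 scale, for Socs1, Socs5 and Socs6 the 18 intervals lay between -0.88 and 0.60, and for Cish and Socs3 the 12 lay between -0.99 and 0.68. These limits come from the fit that ignores the replicate number in the labels. With the number as a replicate block the largest SE over the 18 differences of Socs5, Socs6 and Socs7 was 0.134 in place of 0.232, 0 of 48 differences passed, the lowest adjusted p was 0.571 (edgeR), and 1 unadjusted p was again under 0.05. At the same number the variant lay on 1 side of p254I in all 5 pairs in 4 of 48 comparisons. With only 5 pairs some comparisons reach this by chance, and the share of all genes that did was not computed. The 4 are therefore given as a description only. Socs6 and Socs7 in M1 were lower in p284R (ratios 0.870–0.978 and 0.874–0.983), Socs5 in M0 was lower in p254V (0.927–0.976) and Socs2 in M2 was higher in p254V (1.01–1.43), and none of these passed the test.

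The lowest unadjusted p within a polarization was that of Socs2 in M1. It was 0.150, 0.356, 0.0975, 0.0752 and 0.873 CPM in p254I, 0.137, 0.148, 0.0333, 0.228 and 0 CPM in p254V, and 0.198, 0.0831, 0.0426, 0.259 and 0.122 CPM in p284R. One p254I library, the one with M2 transcripts named above, was high and the groups otherwise overlapped. The log2 fold change of p254V was -1.40 ± 0.67 (unadjusted p = 0.041, adjusted p = 1, edgeR) and became -0.73 without that library, and that of p284R went from -0.86 to -0.19.

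Socs1 and Socs3, the members with a kinase inhibitory region, were both highest in M1. Socs1 in M1 was 198, 143, 194, 182 and 149 CPM in p254I, 188, 139, 189, 181 and 168 CPM in p254V, and 174, 138, 217, 204 and 200.01 CPM in p284R. Socs3 in M1 was 19.6, 18.7, 27.7, 27.4 and 19.97 CPM in p254I, 19.3, 19.9, 25.9, 23.3 and 23.1 CPM in p254V, and 21.7, 18.2, 31.7, 32.4 and 36.3 CPM in p284R. The genotypes overlapped for both genes, with 3 of the 5 p284R libraries above every p254I library for Socs3. The log2 fold change of p284R was 0.11 for Socs1 (95% interval -0.18 to 0.40) and 0.31 for Socs3 (-0.07 to 0.68; adjusted p = 0.864, edgeR). In the same comparison 2 of 5 M1 markers were called higher, Cd40 by 1.05 ± 0.20 and Nos2 by 2.20 ± 0.45 on the log2 scale. Of the 7 M2 markers 2 were called lower, Arg1 and Retnla, which in p254I reached 40.8 and 49.1 CPM in the library of mouse 5. The part of these markers in the Socs3 values was not tested.

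Cish in M2 was 48.3, 73.6, 70.1, 46.8 and 72.9 CPM in p254I, 52.6, 78.1, 80.7, 66.7 and 63.1 CPM in p254V, and 57.7, 74.6, 61.4, 70.7 and 73.1 CPM in p284R. The groups overlapped, with the lowest value in the p254I library of mouse 4. Socs2 in M2 was 34.0, 44.5, 48.2, 27.4 and 35.6 CPM in p254I, 34.2, 63.5, 51.3, 36.1 and 39.1 CPM in p254V, and 41.9, 50.3, 34.5, 44.4 and 43.0 CPM in p284R, again overlapping. The log2 fold changes of p254V were 0.13 for Cish and 0.24 for Socs2, and 0.05 and 0.15 without the p254I M2 library of mouse 4. Those of p284R were 0.12 and 0.18, and 0.03 and 0.08 without it. For Socs3 in M2 the p254V difference went from -0.44 to -0.62 (adjusted p = 1, edgeR) without it.

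Averaged over polarizations, Socs4 in p254V was lower by 0.08 ± 0.04 on the log2 scale (unadjusted p = 0.031, adjusted p = 1.00, edgeR), the only other unadjusted p under 0.05. That fit had no term for the mouse. Its SE and p therefore took the M0, M1 and M2 libraries read as the same mouse for separate units, unlike the per-mouse test below. The averaged comparisons called 0.0155% of all genes for each variant. On per-mouse means of log2(CPM + 1), the exact two-sided permutation test of 5 against 5 mice gave p = 0.127 for Socs4 in p254V as the lowest of 16 comparisons, with an adjusted p of 0.968 for all of them (the smallest p possible is 0.00794). The response to a stimulus was compared between genotypes by interaction terms. Of 32 such terms none passed (lowest unadjusted p 0.095, lowest adjusted p 1.00, edgeR), and these comparisons called 0% of all genes. The interval was widest for Socs2, from -2.65 to 1.40, and narrowest for Socs4, from -0.21 to 0.20. The Socs2 terms for M1 were -1.11 in p254V and -0.74 in p284R, and -0.44 and -0.06 without the p254I M1 library of mouse 5.

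**Figure D4:**
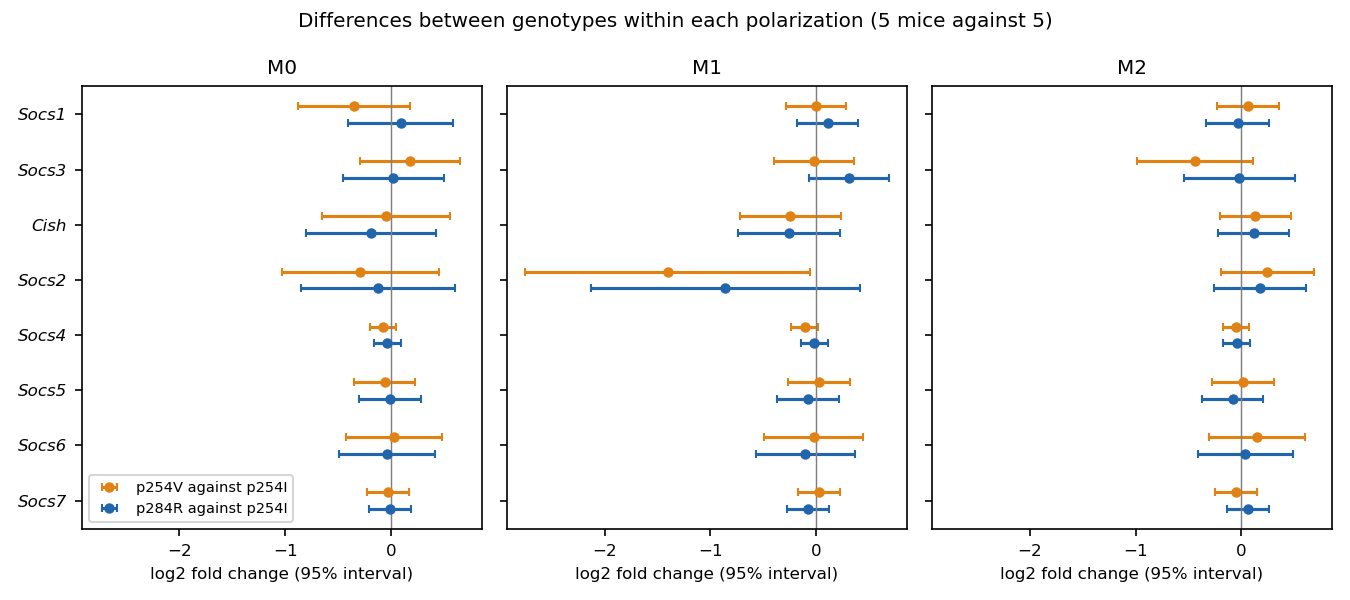
Log2 fold change with 95% interval (edgeR) of each SOCS family gene in p254V and p284R against p254I macrophages, 5 mice against 5, within M0, M1 and M2. The points lie between -0.44 and 0.31 apart from Socs2 in M1, at -1.40 and -0.86, and intervals are narrowest for Socs4 and Socs7.

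Within groups, levels of Socs5, Socs6 and Socs7 followed the replicate number in the labels. Socs5 was lowest in replicate 2 in 9 of 9 groups, at 23.7–24.9 CPM in M0 beside 31.0–35.3 CPM in the other replicates. Socs6 was highest in replicate 2 in 8 of 9 groups, at 98.4–116 CPM in M0 beside 46.7–63.1 CPM in replicates 3, 4 and 5 and 92.5–96.2 CPM in replicate 1. Socs7 was highest in replicate 2 in 6 of 9 groups and lowest in replicate 4 in 6 of 9.

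The replicate number held 81.7% of the within-group variance of log2(CPM + 1) for Socs5, 70.2% for Socs6 and 60.2% for Socs7, and 7.24% to 24.1% for the other members. Socs4, at 22.9%, was among the latter. This share was not computed over all genes. Over 9522 genes, deviations of same-number libraries of different genotypes correlated over 0.1 in 15 of 15 pairs in M0, 15 of 15 in M1 and 13 of 15 in M2. Shared deviations by number were thus not particular to these members. The labels do not say what mice of different genotypes with the same number shared. Summed neutrophil and precursor markers also moved with the number, at 134–204 CPM in replicate 2 of M0 beside 19.4–141 CPM in the others. In M2 they were 42.5–58.8 CPM in replicate 2 beside 13.0–54.0 CPM. S100a8 and S100a9 made up most of these sums. Other lists moved with the number too. M1 markers in M1 summed to 2742–3636 CPM in replicate 2 beside 3179–8303 CPM in the others. The basophil, mast cell and eosinophil list in M0 held 37.9–49.2 CPM in replicate 2 beside 48.4–121 CPM. The part of these markers in the pattern was not tested.

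**Figure D5:**
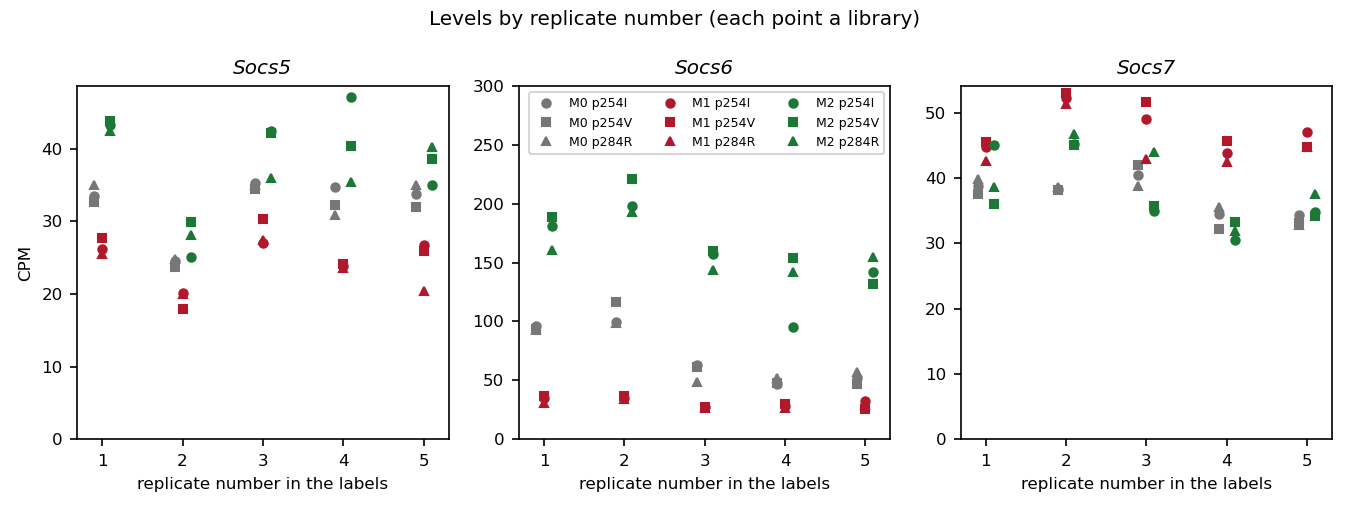
TMM-scaled CPM of Socs5, Socs6 and Socs7 in each library by the replicate number in the labels (x axis); colors mark the polarization and symbols the genotype. Replicate 2 holds the lowest Socs5 in every group, and in M0 Socs6 is 92.5 CPM or more in replicates 1 and 2 and at most 63.1 CPM in the others.

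The rest of the JAK-STAT system was read from lists of its parts. Of 26 tested receptors, JAKs and STATs, 13 were higher and 7 lower in M1 than in M0, and 7 were higher and 16 lower in M2. These were 20 of 26 and 23 of 26, beside 77.3% and 76.4% of all genes, of which 37% were higher and 40.3% lower in M1 and 36.8% and 39.6% in M2; the counts of the lists below are to be read against the same shares. The median log2 fold changes were 0.17 and -0.25, beside -0.03 for all genes in both comparisons. In M1, Il2rg, the common gamma chain of cytokine receptors, rose by 2.80 ± 0.10 and Stat2, a mediator of interferon signals, by 1.93 ± 0.13. Stat4, Il6st, which encodes gp130, and Il10rb fell by 1.00, 1.00 and 0.62. In M2, Il6st rose by 1.42 ± 0.08, Jak2 by 1.30 ± 0.05 and Csf2rb, the common beta chain, by 1.13 ± 0.08, and Stat4, Il10ra and Lifr fell by 3.09, 1.14 and 1.11. Il6st and Socs3, receptor and inhibitor, thus changed in opposite directions in both states.

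Among cytokines that induce SOCS genes, 3 of 11 were tested. Il10 rose in M1 (4.27 to 7.90 CPM, log2 fold change 0.88 ± 0.20) and fell in M2 (0.686 CPM, -2.65 ± 0.24), and Osm, a gp130 ligand, was lower in both, by 0.78 and 1.59. Lif was at 0.261 CPM in M0 and passed in neither comparison.

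The ligase that SOCS boxes recruit moved by less than 1 on the log2 scale throughout. Of its 9 subunits and partners, 7 were higher and 2 lower in M1, and 7 were higher and 1 lower in M2, with median log2 fold changes of 0.33 and 0.19. Cul2, the cullin of a related ligase, rose by 0.99 ± 0.03 in M1 and 0.29 ± 0.03 in M2. Nedd8, which activates cullins, rose by 0.39 and 0.34, and Elob (Elongin B) by 0.39 and 0.36. Arih2 was lower in both states, by 0.20 and 0.18, and Cul5 was lower in M1 by 0.19.

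Of 12 other inhibitors of JAK-STAT signaling, 6 were higher and 2 lower in M1, and 4 were higher and 5 lower in M2. Usp18, which restrains type I interferon receptors, rose by 2.80 ± 0.19 in M1, and the phosphatases Ptpn6 and Ptpn2 rose by 1.38 ± 0.08 and 1.35 ± 0.04, while Cbl and Pias3 fell by 0.58 and 0.22. In M2, Ptpn2, Cbl and Ptpn11 rose by 0.81, 0.36 and 0.23, and Ptpn6, Pias3 and Sh2b3 fell by 0.72, 0.60 and 0.26. Ptpn6 therefore moved like Socs3, up in M1 and down in M2, and Ptpn2 like Socs1, up in both.

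Of 20 tested genes for other proteins with a SOCS box, 5 were higher and 10 lower in M1, and 8 were higher and 7 lower in M2. Spsb4 went from 4.95 CPM in M0 to 0.371 CPM in M1 and 11.96 CPM in M2 (log2 fold changes -3.91 ± 0.17 and 1.27 ± 0.13), and Asb4 from 6.75 to 1.28 and 16.0 CPM (-2.39 ± 0.16 and 1.24 ± 0.14). Both had the direction of Socs2, Socs5 and Socs6, lower in M1 and higher in M2. Asb11 rose in M1 from 0.0605 to 1.24 CPM, Asb13 by 1.17 ± 0.07 and Asb5 by 1.15 ± 0.26. Asb5 also rose in M2, by 1.18 ± 0.26, where Asb2 fell from 1.53 to 0.0930 CPM and Spsb1 by 0.65. Asb10 was lower in both, at 0.325 CPM in M0 and under 0.1 CPM in the stimulated states. Across these 5 lists, 0 of 70 genes passed in any of the 12 genotype comparisons and interactions (edgeR), and 31 of 840 unadjusted p were under 0.05.

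The genes whose log2(CPM + 1) followed each member most closely over the 45 libraries were listed by Pearson correlation, as a description of patterns that polarization shapes. Socs1 was nearest to Rnf19b (r = 0.99), Gnb4 (0.98) and Psma4 (0.98), whose mean levels also ran in the order M1, M2, M0. Socs3 was nearest to Clic5, Cxcl9 and Gbp4 (each 0.99), whose means were at most 2.99 CPM in M0 and M2 and at least 437 CPM in M1. Cish was nearest to Prkcd, Il31ra and Kcnd3 (each 0.99) and Socs2 to Ptpre, Rrp8 and Ppp1r3c (each 0.99), all highest in M2. Socs6 was nearest to Spg21 and the β-glucan receptor gene Clec7a (each 0.98) and to Cd200r1 (0.97), which had the same order, M2 over M0 over M1. The remaining members had looser companions. Socs5 was nearest to Uba6 (0.90), Pex6 (0.88) and Ehmt1 (0.88), Socs7 to Ext1 (0.86), Plpp2 (0.86) and Capza2 (0.85), and Socs4 to Rnf121 (0.75), Pigg (0.75) and Krcc1 (0.75).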

How the data were processed

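RNA sequencing of 45 macrophage libraries was re-analysed. The authors deposited a table of raw read counts for 29307 genes and a table of CPM for 11900 of them; 100% of the deposited CPM values were whole reads (tolerance 0.01 read) and equal to the counts. Per the labels and the study's methods the authors prepared stranded mRNA libraries and used FastQC, Trim Galore, HISAT2 and mm10, whereas the series text names Cutadapt and STAR. The counting tool, its annotation and its use of strand are not given in the sources used here. Reads shared with overlapping genes could therefore not be told apart.

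Members, gene lists and tests were chosen with earlier results of these data known. All members are named in each comparison. Of every other list the called genes with the largest change are named, up to 3 per direction in M1 and M2 against M0, and for each member the 3 most alike genes; 1 gene that this rule names is not reported here. Groups and replicate numbers came from the labels, doses and times from the study's methods. The counts were tested with edgeR 4.0.16 (R 4.3.3) after filterByExpr over 9 groups (12905 genes), with TMM factors (0.939 to 1.10), robust glmQLFit, glmQLFTest, Benjamini-Hochberg adjustment over all genes and a threshold of 0.05. Polarizations were averaged over genotypes, and SE is the log2 fold change divided by the root of F. Levels are TMM-scaled CPM, and RPKM uses the longest CCDS transcript of GENCODE vM21, which matched 29081 gene IDs. Permutation tests used scipy 1.17.1 with a pseudocount of 1. Promoters came from RefSeq (GRCm38.p6). Proteins and other promoters were not analysed here.

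Cultures of the same genotype and number were taken as the same mouse, from the titles and the 5 mice per genotype in the series text. Their deviations correlated over 0.1 in 12 of 15, 15 of 15 and 11 of 15 pairs for p254I, p254V and p284R (9522 genes). Between genotypes, libraries of the same number did so in 15 of 15 pairs in M0, 15 of 15 in M1 and 13 of 15 in M2. For differential expression the study names limma-voom and gives no block, and before gene set enrichment it names a batch correction (sva). It does not say what the batches were. The fit here was made without a block, so cultures of the same mouse counted as independent. The p-values measure spread between mice and cultures. Tested on simulated counts with log2 changes of 1, the fit recovered 96.5% of 198 changed genes for M1 against M0 (12665 genes) and 82.8% for p284R against p254I within M1 (12678 genes). It also called 10 and 13 unchanged genes. The counts were drawn at each gene's mean over all libraries and without correlation between libraries. These shares therefore do not carry over to members near the floor, such as Socs2 in M1. Alternatives were DESeq2 1.42.0, limma-voom (limma 3.58.1), other size factors and filters, a replicate block, single-polarization fits, counts summed per mouse, a random block and each mouse left out. Recovered reads and the omission of either deviating library were added after seeing the data.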

Additional observations from a re-analysis of the deposited data

Results flagged for a closer look

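In 72 groups of 5 libraries, 8 members in 9 groups, 5 groups had a library separated from the other 4 beyond Dixon's 95% critical value, and chance alone gives about 1 in 20. Cish was 3.95 CPM in p254I M1 replicate 5, beside 1.62–1.92 CPM in the other 4. Socs5 was 24.5 CPM in p254I M0 replicate 2, beside 33.5–35.3 CPM, and 23.7 CPM in p254V M0 replicate 2, beside 32.0–34.4 CPM. Socs7 was 45.1 CPM in p254V M2 replicate 2, beside 33.2–36.0 CPM, and 51.3 CPM in p284R M1 replicate 2, beside 42.5–44.8 CPM. Of the 5 libraries, 4 carry replicate number 2.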

How the results depend on the processing

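There were 28 alternatives in all, 15 of them leaving out a mouse, and each comparison was repeated under at most 26 of the 28. Members called stayed at 8 of 8 for M1 against M0 and for M1 against M2 and at 6 of 8 for M2 against M0, except at 7, 7 and 5 with at least 10 counts in every library, a filter that removed Socs2 from the test. With the replicate block the paired fit called 8, 6 and 8 members (M1 against M0, M2 against M0 and M1 against M2), and it changed no call. No genotype or interaction call appeared under any alternative, and no called member reversed. The sign changed in 167 uncalled differences. The 2943 member values under the alternatives also hold those of called members, which could not enter this count. The adjusted p of Socs4 in M1 ranged from 0.00102 to 0.0316 and that of Socs5 in M2 from 2.5e-06 to 0.0115. Depth limits Socs2 in M1 most, at no more than 17 reads per library.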
